A study of Drosophila melanogaster with 36 samples.

Results

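Among 12 Drosophila melanogaster lines selected for wing shape, 7 genes were listed for large differences between high and low lines that run one way in lines from Massachusetts (MA) and the other way in lines from California (CA). The genes are Ir76a, Spn47C, CG8539, sut2, CG1894, CG32284 and Cyp6a17, of which all but CG32284 showed that reversal, out of 11982 genes that had a probe set annotated only to them. They were chosen by measured values, namely the sign of the high minus low difference in the MA mean and in the CA pair, so those differences are given here as a description without a test. The 7 genes had 8 probe sets, 2 of them for CG1894, and 7 of the 8 passed a filter that kept the brighter probe sets (mean log2 signal no lower than the median over probe sets, which corresponds to a signal of 259.7).

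RNA came from tubes of 100 wing discs, the larval tissue that forms the adult wing and notum, dissected from 3rd instar larvae with a median age of 6.2 h before pupariation and reared at 20 °C, with 3 arrays per line. The founders H (high) and L (low) were made from an MA population by 20 generations of selection and were then isogenized. Hybrid populations A to D were bred from crosses of H with L, mixed for 34 generations, selected for 25 generations into high lines A1, B1, C1 and D1 and low lines A2, B2, C2 and D2, and inbred for 10. CA high and CA low came from a separate population, for which the sources used here give no number of generations, and each is a single line, so the CA difference cannot be told apart from a difference between those 2 lines that selection did not cause. All differences below are high minus low on the log2 scale, where 1 unit is 2-fold, and signals are linear MAS5 values. Whether the 3 tubes of a line were grown separately is not stated, and p-values over arrays reflect the spread between these tubes, which may be technical.

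These genes belong to unrelated families. Ir76a encodes an ionotropic receptor, a chemosensory channel subunit of olfactory neurons that works with the broadly used co-receptors Ir25a and Ir76b. The gene sut2 encodes a sugar transporter of the plasma membrane, and Spn47C a serpin, a class of proteins most of which trap and inhibit serine proteases. CG8539 encodes a predicted metallocarboxypeptidase, which would trim amino acids from the end of peptides. Cyp6a17 encodes a cytochrome P450, a haem enzyme that oxidises small molecules, and is required in the adult brain for normal temperature preference. CG1894 encodes a predicted histone acetyltransferase of the MYST family, related to mof and Tip60. Inbreeding leaves most genes of a line with a single allele.

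Each array resembled the other arrays of its own line more than those of any other line, in 36 of 36 cases. The wing disc genes vg, nub, ap, en, hh, ptc, dpp, salm, bi, pnr, ara and caup were all measured and had mean signals from 1308 (ptc) to 23738 (nub). Markers of gut, salivary gland, trachea and testis had means over all arrays of 33.6 to 829.5, and fat body markers of 144.8 to 1020.1. Single arrays stood apart: the summed salivary gland signal ran from 492.4 to 17861.7 over MA low arrays and from 501 to 9120.7 over MA high. In CA it ran from 975 to 1911.9 over CA high and from 1031.3 to 5367.6 over CA low. Group means of all salivary gland markers were higher in CA low than CA high, and went both ways in MA. The summed fat body signal ran from 668.6 to 7829.2 over MA high, 626.4 to 1634.5 over MA low, 826 to 1350.7 over CA high and 804.4 to 6621.3 over CA low. Group means of all 4 fat body markers with a probe set were higher in MA high than MA low, and in CA low than CA high. These are the directions of Ir76a, Spn47C and sut2. By limma the 1 tested, Lsp2, was not called (0.40 in MA, adjusted p = 0.58, and -0.83 in CA, adjusted p = 0.351). The muscle precursor genes twi and htl, whose cells lie on the disc, were at 3414 and 3201, and htl was lower in CA high than in CA low (-0.60). Of 8 hemocyte markers, 7 were lower in high lines over the MA pairs and 2 were lower in CA high, and their summed signal was 3277 to 7609 in MA high arrays, 7671 to 14157 in MA low, 8281 to 9000 in CA high and 13020 to 17187 in CA low. Of the 8, NimC1 (0.27 in MA and -0.87 in CA) and eater (-1.53 and 0.26) had opposite signs. The part of these tissues in the results below was not tested. Of 5 neuronal markers with a probe set, elav was at 2386 and the others (Orco, Ir25a, brp and nSyb) at 72.4 to 287.8.

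The values that chose the genes were as follows. In MA lines the mean difference over 5 pairs was 3.93 ± 1.01 (SD over pairs) for Ir76a, 2.97 ± 1.54 for Spn47C and 2.46 ± 1.62 for sut2, against -5.00, -3.59 and -3.31 in the CA pair. It was -3.17 ± 0.68 for CG8539, -3.53 ± 1.21 for Cyp6a17 and -2.96 ± 2.56 for CG1894, against 3.83, 3.12 and 3.13 in CA. These 6 genes were opposite in sign. CG32284 was not: its MA mean was -0.24 ± 0.18 and its CA difference -4.97, both below 0, so it had a large difference in CA with none of comparable size in MA. It is kept here as a listed gene, and described apart. Over all 9385 probe sets tested, 51.1% had opposite signs in MA and CA whatever the size, and only 11 (0.117%) had opposite signs with both differences at 2 or more. Those 11 were the bright probe sets of the 6 genes and 5 probe sets with no gene symbol. Ranked by the smaller of the 2 differences, the next genes with a single symbol were tmod (-1.42 in MA and 2.11 in CA), CG31676 (-2.33 and 1.41) and ltl (1.69 and -1.31).

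**Figure D1:**
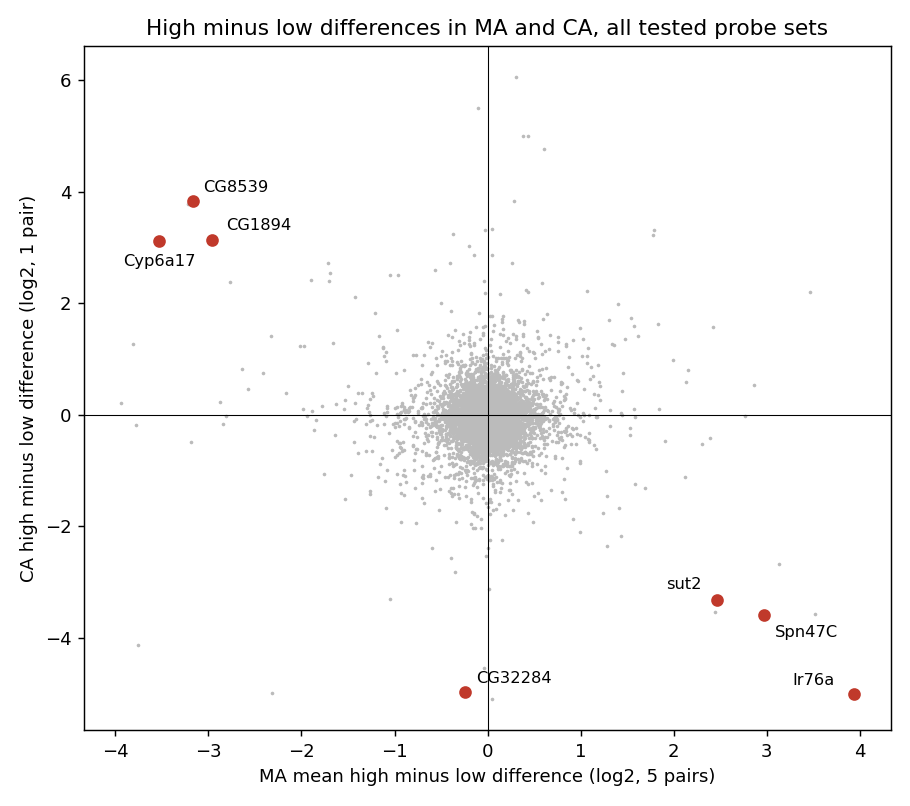
High minus low difference on the log2 scale in MA (mean of 5 pairs, horizontal axis) against the CA pair (vertical axis) for 9385 tested probe sets (grey) and the 7 genes (red). Ir76a, Spn47C and sut2 lie at lower right and CG8539, Cyp6a17 and CG1894 at upper left, while CG32284 lies near 0 on the MA axis.

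Ir76a was either bright or dim in every line. Its signal ran from 616.3 to 2384.3 (median 1544.9) over the 15 MA high arrays and from 41.9 to 279.5 (median 81.5) over the 15 MA low arrays. In CA high the 3 arrays gave 64.4, 85.5 and 62.1, and in CA low 2180.6, 1939 and 2656.3. The 18 bright arrays (5 MA high lines and CA low) and the 18 dim ones did not overlap, and the step between them, from B1 to A2, was 2.32. The dim arrays lay near or under the filter level, without detection calls to separate them from background, so the size of each difference is less certain than its sign. The order from brightest to dimmest was CA low, D1, A1, H, C1, B1, A2, B2, C2, L, CA high, D2, and besides the step from B1 to A2 only H to C1 and CA high to D2 were neighbours whose arrays did not overlap.

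Because the rule looked only at high minus low differences averaged over MA pairs, the spread among lines of one direction is a separate measurement. Among the 4 reselected low lines Ir76a differed (limma moderated F, adjusted p = 0.0419 over all probe sets), from 49.4 in D2 to 180.4 in A2, all of them dim levels. This call was lost without any 1 of 10 arrays (largest adjusted p = 0.123, without D2 replicate 2), and with line A2 or D2 left out (adjusted p = 0.18 and 0.432). Among the high lines A1 to D1 no difference passed (adjusted p = 0.157). The high minus low difference ranged over pairs A to D from 2.78 (B) to 5.38 (D), with adjusted p = 0.0395 for a difference between pairs, lost without any 1 of 13 arrays (largest adjusted p = 0.0998).

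The serpin gene Spn47C and the transporter gene sut2 shared 1 exception, the low line A2. For sut2, MA high arrays ran from 2103.7 to 5262.7 (median 4650.6), and the arrays of L, B2, C2 and D2 from 226.6 to 1358.2. A2 was a low line with bright sut2, at 5944.5, 5443.4 and 4818.6, brighter on average than any other line. CA high gave 395.9, 396.4 and 441.7 and CA low 4023, 3895.5 and 4335. The CA arrays therefore lay inside the ranges of the dim and bright MA lines. Bright and dim lines of sut2 were separated by 1.74 with no overlap of arrays, 7 lines bright and 5 dim. Within pair A the difference was -0.32, while it was 2.62 to 3.64 in the other 4 pairs.

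The difference among the reselected low lines was far larger than the spread between arrays for sut2 (adjusted p = 2.38e-12), and with line A2 left out it did not pass (adjusted p = 0.0552). B1 was the exception among high lines, at 2263.2, 2495.8 and 2103.7 against 3886.1 to 5192.5 in A1, C1 and D1. The high reselected lines differed for sut2 with adjusted p = 0.00573, which also rested on 1 line (adjusted p = 0.877 without B1). Pairs A to D differed in their high minus low difference with adjusted p = 1.49e-08.

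For Spn47C, MA high arrays ran from 1368.5 to 3005.5 (median 2306.4). A2 again stood with them at 1869.5, 1602.7 and 1805.2. The other low lines were dim but uneven between arrays: L gave 46.4, 100.3 and 219.5, B2 gave 156.3, 64 and 1059.2, C2 gave 158.1, 71 and 258.1, and D2 gave 85.1, 550.4 and 380.7. Replicate 3 of B2 thus came close to the lowest bright array, which was 1129 in CA low. CA high was even, at 97.4, 111.2 and 92.9, and CA low at 1248.8, 1129 and 1258.2. The low lines differed with adjusted p = 0.000635, and not without A2 (adjusted p = 0.698). No difference among high lines passed for Spn47C (adjusted p = 0.657), although B1 was the dimmest of them here too, at a mean of 1404. The test between pairs gave adjusted p = 0.0603, and it passed without any 1 of 7 arrays, with adjusted p = 0.0035 without B2 replicate 3.

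**Figure D2:**
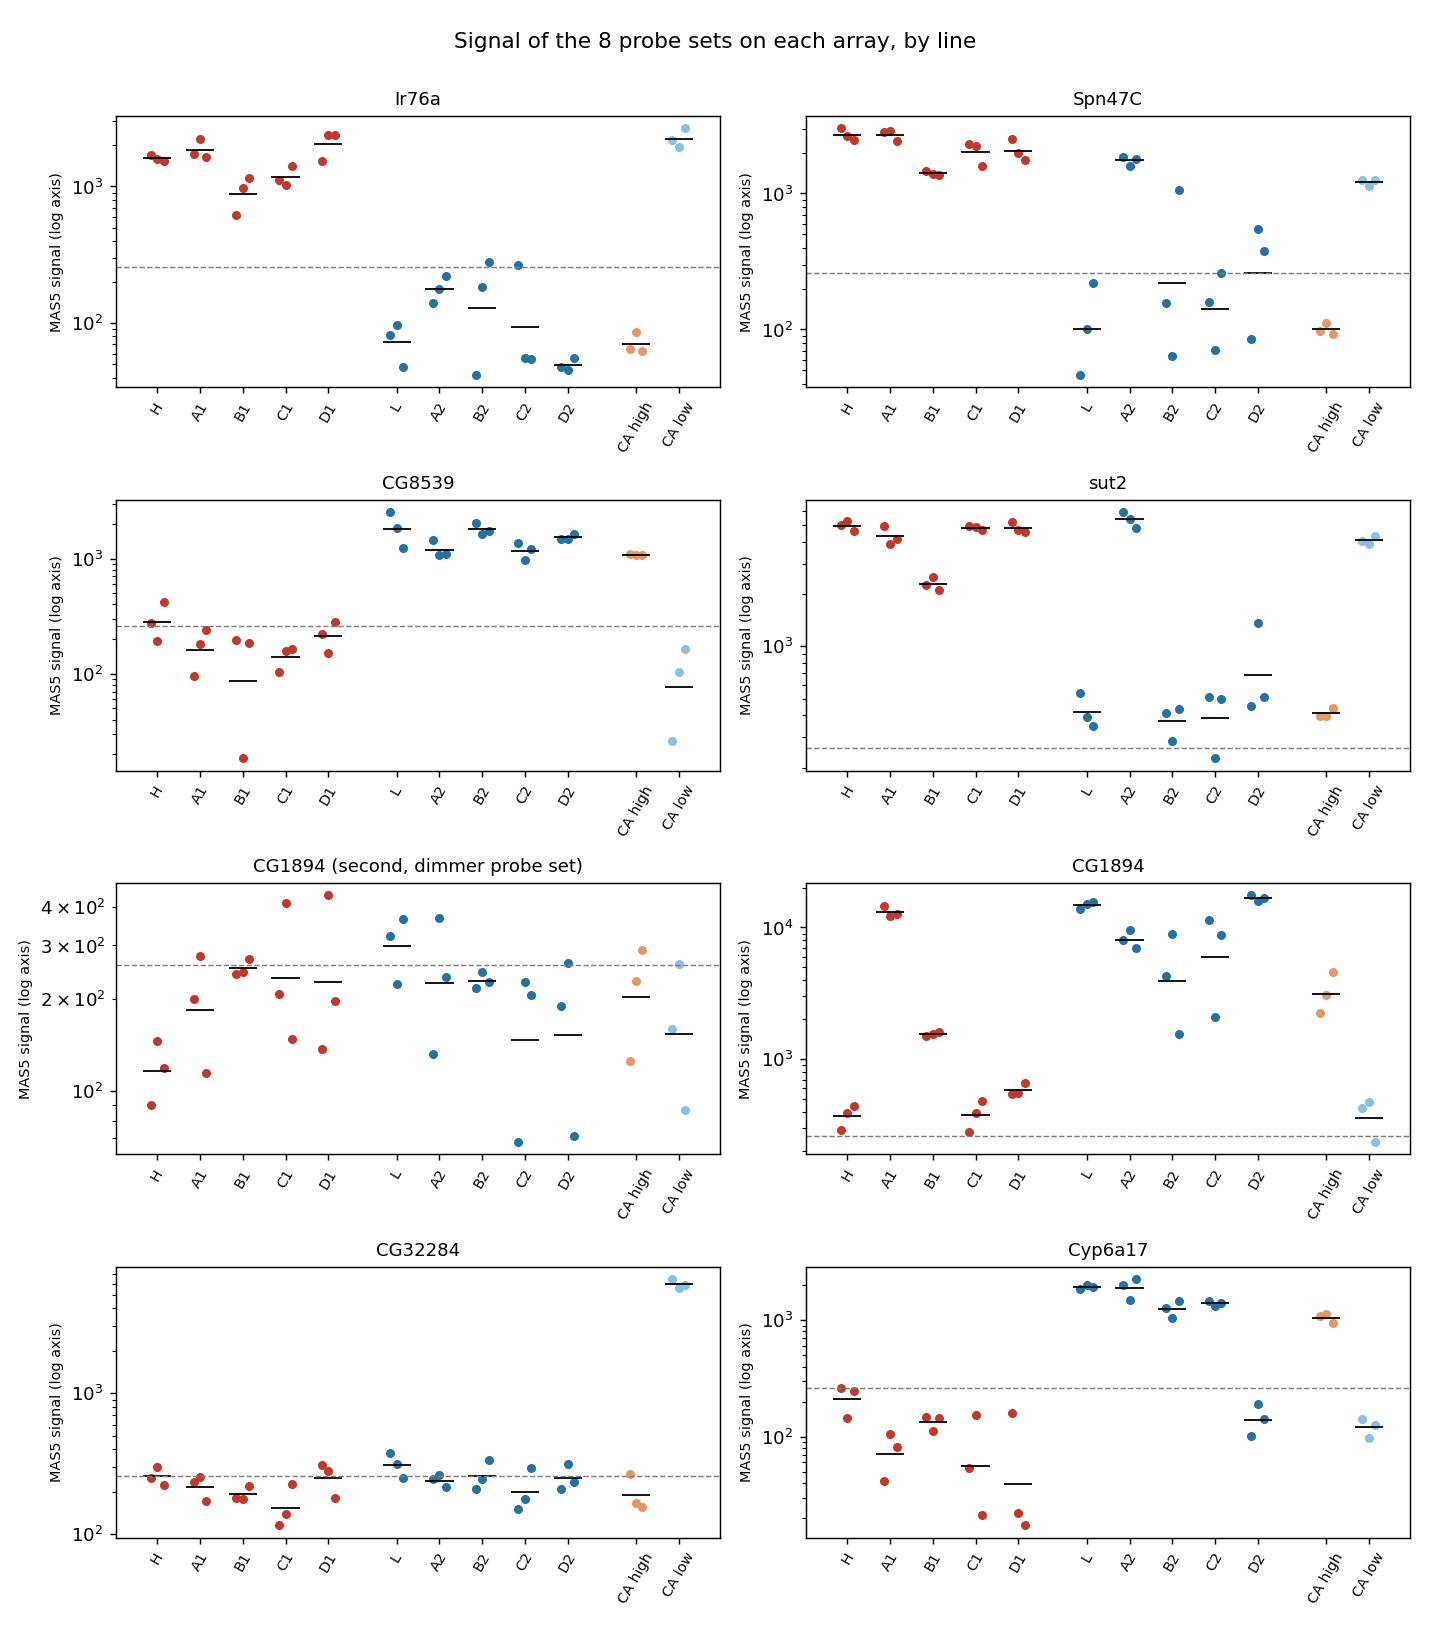
MAS5 signal (log axis) of the 8 probe sets on each of 36 arrays, with lines on the horizontal axis, MA high lines in red, MA low in dark blue, CA high in orange and CA low in light blue. Points are arrays, short bars the mean of log2 signals of a line, and the dashed line the filter level of 259.7. A2 is bright for Spn47C and sut2, D2 is dim for Cyp6a17, A1 is bright for CG1894, and only CA low is bright for CG32284.

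The carboxypeptidase gene CG8539 ran the other way and had no exception among the 12 lines. MA low arrays gave 971.1 to 2540.8 (median 1473.2) and MA high arrays 18.4 to 423.6 (median 183). CA high gave 1096.5, 1077.1 and 1067.6, and CA low 26, 104.2 and 162.4. The 6 bright lines (5 MA low lines and CA high) lay within 0.74 of one another, and the step down to the brightest dim line, H, was 1.93. No difference passed among low lines (adjusted p = 0.817), among high lines (adjusted p = 0.335) or between pairs A to D (adjusted p = 0.462), whose differences ran from -4.36 to -2.84.

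For the P450 gene Cyp6a17 the exception was D2. The low lines L, A2, B2 and C2 gave 1036.6 to 2261.6, while D2 gave 100.4, 189.3 and 142.7 and so lay among the high lines, whose 15 arrays ran from 17.3 to 261.1. CA high was bright, at 1080.9, 1139.5 and 941.6, and CA low dim, at 143, 97.6 and 125.4. Bright and dim lines were 2.31 apart without overlap, 5 bright and 7 dim. The low lines differed with adjusted p = 3.79e-05, and not with D2 left out (adjusted p = 0.752). Pair D still had a difference of -1.82, because D1 was dimmer still, at 159.4, 22.3 and 17.3. All of these D1 and D2 values lie under a signal of 259.7. The high lines A1 to D1 did not differ past the threshold (adjusted p = 0.0904), but did without D1 replicate 1 (adjusted p = 0.000717) or without C1 replicate 2 (adjusted p = 0.0185). Pairs A to D differed with adjusted p = 0.0242, lost without D2 replicate 1 or D1 replicate 1 (largest adjusted p = 0.0624).

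Other P450 genes of the same group were measured beside Cyp6a17. The genes Cyp6a22 and Cyp6a23 were under the filter, with mean signals over all arrays of 83.4 and 109.9. For Cyp6a23, a close paralog of Cyp6a17, group means were 73.7 in MA high, 145.1 in MA low, 84.8 in CA high and 140.7 in CA low. These means were all under the filter level and were not tested, so they cannot show whether Cyp6a23 followed Cyp6a17.

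CG1894, the acetyltransferase gene, was less plainly bright or dim than the others. L gave 13700.1, 15186.2 and 15730.6, D2 gave 17511.7, 16026.2 and 16672.4, and A2 gave 8004, 9505.5 and 6957.5. B2 gave 4302.5, 8977.6 and 1544.7 and C2 gave 11460.6, 2103.2 and 8815.1, so that arrays of 1 line differed by over 5-fold. Among high lines H, C1 and D1 were dim, at 277.6 to 660.5, B1 was intermediate at 1501.7, 1543.4 and 1618.2, and A1 was bright at 14478.2, 12247.9 and 12606.4. CA high, at 2229.2, 3044 and 4560.1, lay below most MA low arrays, and CA low, at 422.8, 468.4 and 235.3, with the dim high lines. The widest step in the order of lines, from B1 to D1, was 1.41, or 25.5% of the whole range.

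The high reselected lines differed for CG1894 with adjusted p = 6.09e-10, and still did with A1 left out (adjusted p = 0.00301). Its low lines differed with adjusted p = 0.00782, which was lost with B2 or D2 left out (adjusted p = 0.0747 and 0.257). The high minus low difference was 0.69 in pair A, -1.33 in B, -4.00 in C and -4.84 in D, and the pairs differed with adjusted p = 1.88e-07. The second probe set of CG1894 did not pass the filter, with arrays from 68.1 to 437.6, an MA mean of -0.05 ± 0.82 and a CA difference of 0.40. The 2 probe sets of this gene therefore disagree. The brighter one, like the only probe set of Ir76a, is of the type whose probes are shared by several transcripts.

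CG32284 was bright in CA low alone. Its 3 arrays there gave 6474.8, 5564.8 and 5897.9, against 266.9, 167.5 and 155.2 in CA high. All 30 MA arrays lay between 115.9 and 379.1, and the ranges of high and low lines overlapped almost wholly. No difference passed among high lines (adjusted p = 0.301), low lines (adjusted p = 0.796) or pairs A to D (adjusted p = 0.857). The gene passed the filter only through CA low, so these tests compared dim levels and cannot show that expression was equal. The step from CA low to the next line, L, was 4.26, or 80.7% of the whole range. Among all tested probe sets, 48 (0.511%) had a widest step of 2 or more between ordered lines without overlap of arrays on the 2 sides, and 4 of the 7 tested here were among them: Ir76a, Spn47C, CG32284 and Cyp6a17. Since the genes were picked on large differences, this count is a description of them.

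In all, 5 of the 7 tested probe sets differed among the low lines A2 to D2, where 12.1% of all tested probe sets did, and 4 differed in their high minus low difference between pairs A to D, where 13.0% did. Among the high lines A1 to D1, 2 of 7 differed, near the 23.7% of all tested. The 7 include CG32284, which passed the filter only through CA low and was not called in any of these tests. The calls of Spn47C, sut2 and Cyp6a17 among low lines each rested on 1 line that had the level of the high lines, A2 for the first 2 genes and D2 for Cyp6a17. Those of Ir76a and CG1894 were also lost with 1 line left out, A2 or D2 for Ir76a and B2 or D2 for CG1894. The low lines of Ir76a all had means under the filter level, from 49.4 to 180.4, and the gene passed the filter through its bright lines. Its call among low lines thus compared dim levels.

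The mean level of the 2 CA lines was compared with that of the founders H and L, whose arrays share a run of title numbers with the CA arrays. This contrast does not use high minus low differences. CG32284 is left out of it, since every line but L and CA low was under the filter level and the gene passed through CA low, the line it was listed for. CG8539 gave -1.32 ± 0.41 (SE, adjusted p = 0.0162) and so had a lower mean in CA, although not without CA low replicate 1 (adjusted p = 0.0816). Its mean log2 signals were 6.25 in CA low, under the filter level, against 8.14 in H, and 10.08 in CA high against 10.82 in L. CG1894 had a lower mean too (-1.14 ± 0.31, adjusted p = 0.00611). Its dim lines CA low and H were alike (8.49 and 8.52), while CA high and L were at 11.62 and 13.86. No difference passed for Ir76a (0.21 ± 0.34, adjusted p = 0.699), sut2 (-0.16 ± 0.19, adjusted p = 0.586), Spn47C (-0.58 ± 0.44, adjusted p = 0.357) or Cyp6a17 (-0.85 ± 0.40, adjusted p = 0.114). Of these 6 genes 2 were called, both lower, against 27.0% of all tested probe sets, 13.4% higher and 13.6% lower in CA. Higher calls made up 49.5% of all calls in this contrast, and 89.4% when arrays were centred on their medians. Against all 10 MA lines in place of the founders, Spn47C (-1.12, adjusted p = 0.0124) and sut2 (-0.42, adjusted p = 0.0258) were also lower in CA, while CG8539 did not pass (-0.78, adjusted p = 0.0616) and Cyp6a17 turned to 0.30 without passing (adjusted p = 0.484). The reselected arrays lie in another run of title numbers.

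Of the genes most like each member over the 12 line means, those of Spn47C and sut2 included one another (Pearson r = 0.97 over 12 lines). Both also ran opposite to CG12391 (r = -0.98 with Spn47C and -0.95 with sut2). CG12391 had mean signals of 3373 to 3959 in the 5 MA high lines and 3636 in A2, against 8777 to 10319 in the other MA low lines, and 10441 in CA high against 4782 in CA low. It thus carried the same exception, A2, in the reverse direction. The 3 genes lie on chromosome arm 2R, Spn47C and CG12391 with 11 genes between them and sut2 with 505 genes between it and Spn47C. Part of the likeness follows from the direction on which the members were chosen. Within each direction of selection, which that choice did not use, deviations of the 10 MA lines from their direction's mean had r = 0.95 between Spn47C and sut2, and 0.78 without A2. The same r was 0.61 between Ir76a and Spn47C (0.33 without A2) and 0.06 between Spn47C and Cyp6a17 (-0.34 without A2). For each r without A2, that line was dropped only after the means of the directions were taken. The level of A2 therefore still enters these values, and they do not show the likeness free of A2.

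**Figure D3:**
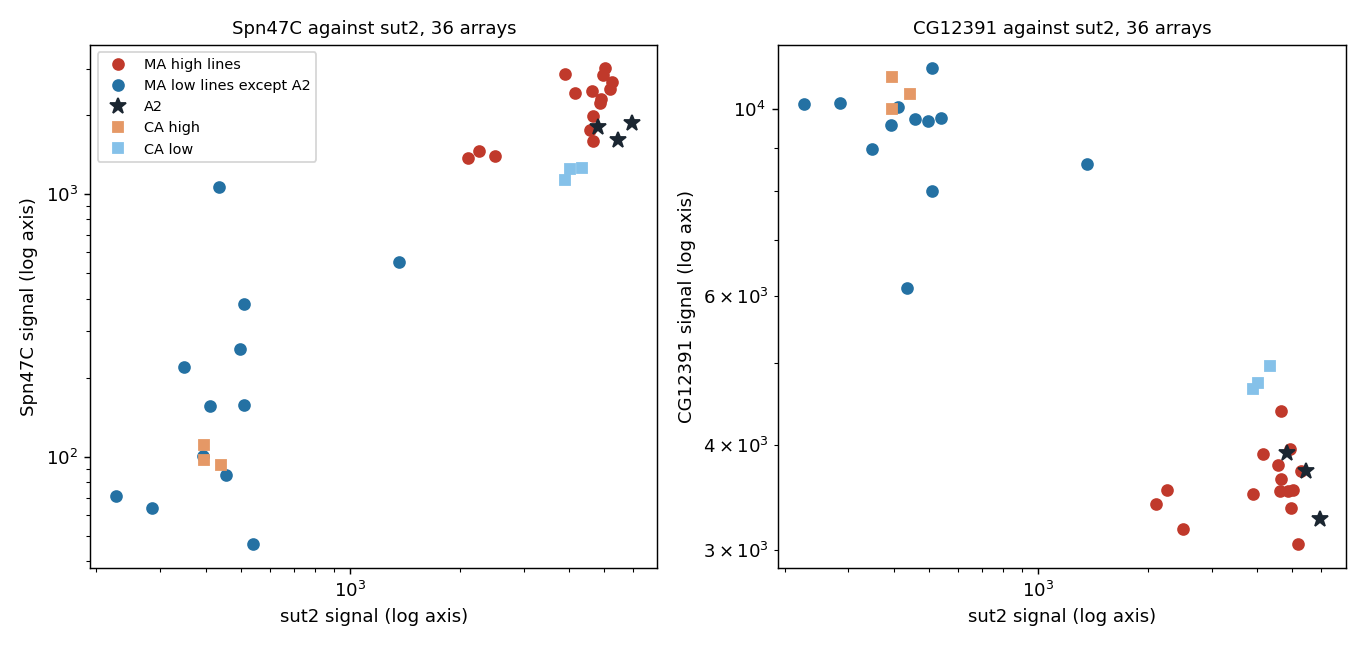
Signal of Spn47C (left) and CG12391 (right) against that of sut2 on the 36 arrays, all axes logarithmic. The 3 arrays of low line A2 (stars) lie with the MA high lines (red) in both panels, the CA low arrays (light blue) near them, and the CA high arrays (orange) with the other MA low lines (dark blue).

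Ir76a was most like Fnta, a subunit gene of protein farnesyltransferase (r = 0.98), and CG8891 (r = 0.97), both on arm 2L and so on another chromosome. Their ranges over lines were smaller, 0.92 and 1.21. Fnta had line means of 8571 to 9016 in MA high lines, 5398 to 6021 in MA low, 5324 in CA high and 10056 in CA low. Fnta also ran opposite to CG8539 (r = -0.96), as did CG6028 (r = -0.96) and su(Hw), an insulator protein gene (r = -0.95). Cyp6a17 was most like CG4502 (r = 0.94), whose lines spanned only 0.49, then Pka-C3 (0.91) and CNPYb (0.89). CG1894 ran opposite to Vps51 (-0.92) and was most like CG3061 (0.90) and Dtd (0.89). The third for Ir76a was ZC3H3 (0.94), for Spn47C CG11562 (0.91) and for sut2 CG12895 (0.89). For CG32284 the 3 most like were TfIIA-L, unk and Pp1-87B (all r = -0.98), each of which was low in CA low, where CG32284 was high, and with 1 line deciding, such an r counts that line alone. All of these r are over 12 line means that include the lines used in the choice.

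Genes next to the members mostly did not share their reversal. The nearest 2 tested genes on each side made 28 neighbours. In the CA pair 6 of the 28 (21.4%) were called, against 17.0% of all tested probe sets, and over the MA line pairs 1 of 28 (3.57%), against 9.69%. The median size of difference among neighbours was 0.19 in CA and 0.09 in MA. The one neighbour called in both, and with opposite signs, was ltl, with 3 genes between it and CG8539. It gave 1.69 ± 0.63 over MA pairs (SD, adjusted p = 0.00315) and -1.31 ± 0.16 in CA (SE, adjusted p = 1.5e-07). Its signs are the reverse of those of CG8539. Among the low lines A2 to D2 ltl differed (limma moderated F, adjusted p = 2.05e-07), while CG8539 did not pass (adjusted p = 0.817). These separate tests do not compare the 2 genes, and whether they mirror each other line by line was not tested. CG14102, which overlaps Ir76a in the gene table, gave -0.81 ± 0.21 in CA (adjusted p = 0.00613) and 0.11 ± 0.29 in MA (adjusted p = 0.639). The transporter gene sut1, directly beside sut2, gave 0.26 in MA and -0.28 in CA (adjusted p = 0.15 and 0.272). The other neighbours called in CA were ND-B14 beside Spn47C (0.42), slv (-0.28) and uno (-0.51) beside sut2 and CG33506 beside Cyp6a17 (-0.82).

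**Figure D4:**
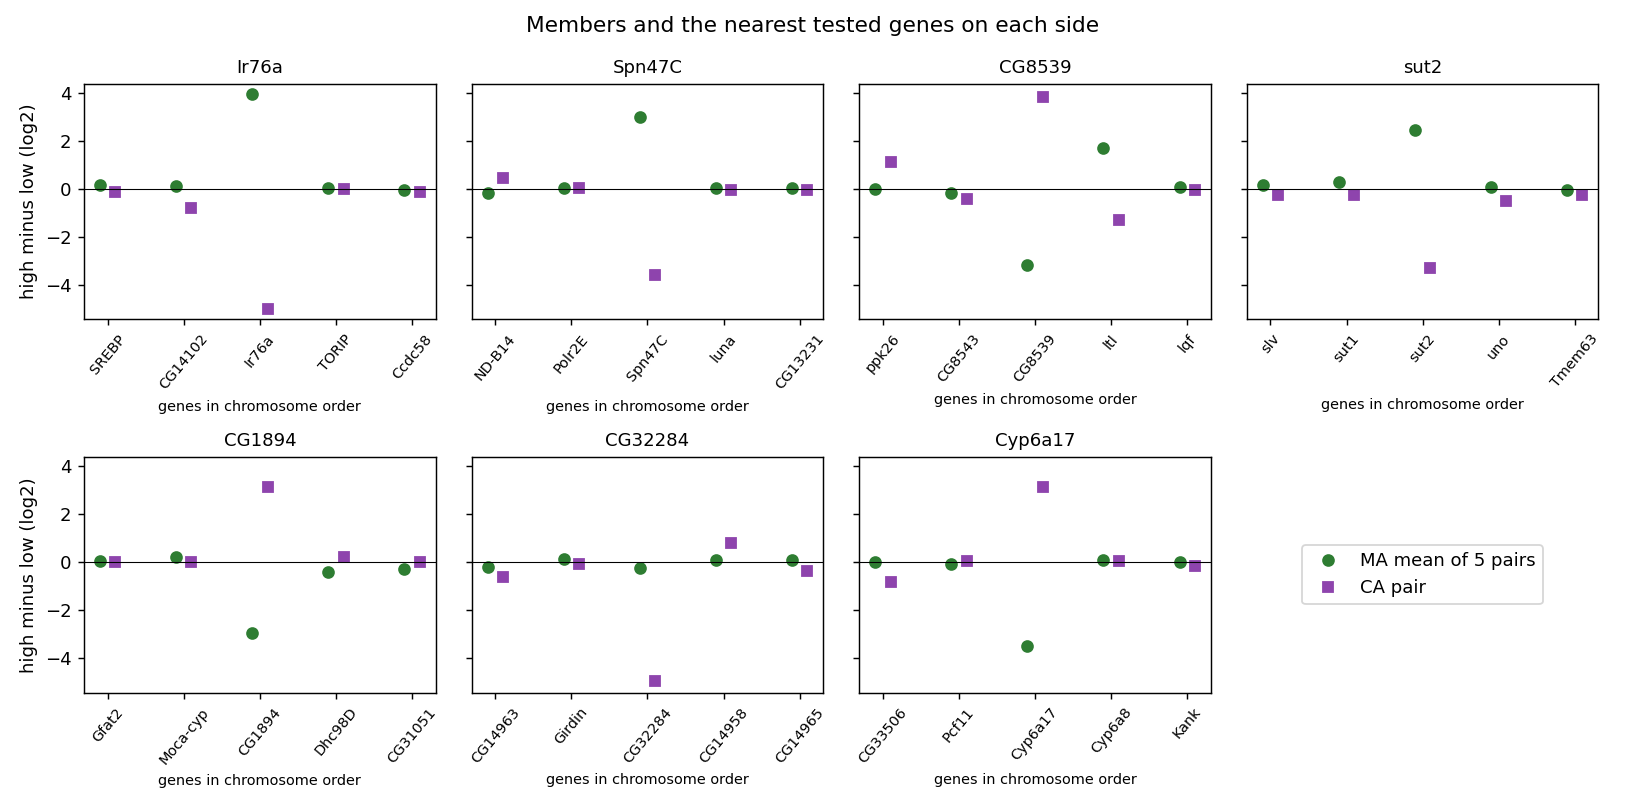
High minus low difference (log2) of each member and of the nearest 2 tested genes on each side, in chromosome order without distances, as the MA mean of 5 pairs (green circles) and the CA pair (purple squares). Only ltl beside CG8539 (1.69 in MA and -1.31 in CA) lies beyond 1 on either side of 0 in both populations among these neighbours.

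Relatives of the members, from family lists, were set beside them, with the members themselves left out. In the CA pair 7.97% of all tested probe sets were higher and 9.05% lower, and over MA pairs 4.92% and 4.76%, and the medians of all were -0.03 and 0.00491. Of 65 other ionotropic receptor genes 7 were tested, and 0 were called by limma in either population (medians -0.36 in CA and 0.07 in MA). The co-receptor gene Ir25a gave -0.15 in CA and -0.06 in MA, and Ir76b did not pass the filter. Of 11 other serpins tested, 2 were higher and 1 lower in CA high than CA low, and 1 was higher in MA high lines (medians 0.04 and 0.01). Spn100A was reversed like Spn47C, with 1.28 ± 0.47 in MA (SD, adjusted p = 0.00309) and -1.45 ± 0.21 in CA (SE, adjusted p = 3.45e-06), at means of 13585 and 5655 in MA high and low lines and 8617 and 23489 in CA high and low. The other serpins called were Spn43Aa (0.75) and Spn (1.27) in the CA pair.

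Of 5 other sugar transporter genes tested, pippin was higher in CA high (1.72 ± 0.22, adjusted p = 3.48e-07) and 0 were called in MA (medians 0.02 in CA and 0.26 in MA). Among 10 other P450 genes of the Cyp6 family 1 was higher in CA high than CA low, Cyp6v1 (0.26), and 0 were called in MA (medians 0.04 and 0.06). Among 6 other carboxypeptidase genes CG2915 was lower in CA high than CA low (-0.23) and 0 were called in MA (medians -0.23 and 0.10). The MYST acetyltransferase genes Tip60, mof, enok and chm were at 2742 to 3850, with 0 of 4 called in either population. Among 11 genes of chitin-binding proteins, the list to which CG32284 was assigned, Gasp was higher in the high lines of both populations (0.94 in CA and 1.07 in MA). The gene serp was lower in the high lines of both (-0.54 and -0.80), while obst-A was lower in CA high than CA low (-0.28). Gasp and serp, which act in the chitin matrix of the trachea, thus differed in opposite directions, each the same way in MA and CA. The tracheal marker btl was not called by limma (adjusted p = 0.522 in CA and 0.275 in MA). Sequence differences under the probes cannot be told apart from changed expression for any gene here that has 1 probe set.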

How the data were processed

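Biotin-labelled RNA from 5 µg of total RNA per sample was hybridised to Affymetrix arrays, and the submitters' processing notes name MAS5 (version not given in the sources used here). The deposited values are thus linear intensity signals made by the authors, and no detection calls accompany them. Their trimmed mean (2nd to 98th percentile) was 2500.1 on each of 36 arrays, and array medians ran from 239.7 to 430.1. Precision is limited by how many arrays each line has.

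Of 18952 probe sets, 183 controls were left out, signals were taken to log2 with no pseudocount, and 9385 were tested. Gene symbols came from the platform table (13647 probe sets with 1 symbol, 402 with several, 4720 with none), and gene order from the RefSeq table of Release 6 plus ISO1 MT, which held 13544 of the first kind. No coordinates are given, since the sources used here name no build for the array, and no sequence is shown.

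Lines were compared in R 4.3.3 with limma 3.58.1 (1 mean per line, intensity trend, 24 residual degrees of freedom) with Benjamini-Hochberg adjustment over all tested probe sets and a threshold of 0.05. Differences among reselected lines, and between pairs A to D, were moderated F tests with 3 degrees of freedom. The MA difference for neighbours and families was tested on 10 line means with the pair as a block. H and L are ancestors of lines A to D, which makes their pair dependent on the others. Reselected arrays carry title numbers 2467 to 2490 and the others 2525 to 2536. Genes named are the members, their neighbours, the 3 with the largest absolute r, and family members called. Members, lists and rules were chosen with earlier results of these data known. The fits were tested on simulated data. Protein matches were not run.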

Additional observations from a re-analysis of the deposited data

Results flagged for a closer look

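In 3 of the 14 groups of 5 MA line means examined for the 7 genes, 1 line was set apart by Dixon's ratio of gap to range (critical value 0.71 for 5 lines), where chance gives about 1 in 20. They were B1 among the high lines for sut2 (0.818), A2 among the low lines for sut2 (0.773) and D2 among the low lines for Cyp6a17 (0.831). The high minus low difference differed between pairs A to D, by limma's moderated F, for Ir76a (adjusted p = 0.0395), sut2 (adjusted p = 1.49e-08), CG1894 (adjusted p = 1.88e-07) and Cyp6a17 (adjusted p = 0.0242).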

How the results depend on the processing

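Of 217 values for single members under settings that left out no single array or reselected line, 204 kept their direction and, where tested, their side of the threshold. So did 1476 of 1512 with 1 array left out and 48 of 56 with 1 reselected line left out. No MA or CA difference of a member changed sign under any setting run. The genes were chosen on these differences, which are part of the 217 and the 1512, so their kept signs are no support for the reversal. When 29.4, the 10th percentile of signals, was added before the logarithm, the CA differences shrank to -4.51 for Ir76a, -3.26 for Spn47C, -3.22 for sut2 and 2.85 for Cyp6a17. CA lines minus founders reversed without being called for sut2 with each array centred on its median (0.047) and for Cyp6a17 with all 10 MA lines in place of the founders (0.30), and for Cyp6a17 it passed with the pseudocount (adjusted p = 0.0345). The difference of Ir76a among low lines did not pass with the pseudocount, without the filter or without the intensity trend (adjusted p = 0.0583, 0.0749 and 0.0587), nor that between pairs without the filter or trend (0.0725 and 0.0562). Between pairs, Spn47C passed with the pseudocount (adjusted p = 0.0394) and Cyp6a17 did not with quantile normalization (0.0533). Leaving out single lines was chosen after seeing the data.

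Over all probe sets, centring arrays on their median moved the counts from 1217 to 571 between pairs A to D and from 1597 to 969 in the CA pair. It moved the share of higher calls from 49.5% to 89.4% for CA lines minus founders, from 46.8% to 62.7% in the CA pair and from 50.8% to 40.8% over MA pairs, with the median of CA lines minus founders at 0.18; the causes were not tested. Over the 4 reselected pairs alone 369 were called in MA, against 909, from fewer lines. Same-numbered arrays of a pair had deviations correlated from -0.06 to 0.19, over 0.1 in 3 of 18 cases. Between lines the mean correlation was 0.019 for arrays of the same number and -0.009 for other numbers. The numbers were not used as pairs in the main fits, and such small values cannot show that the numbers carry no shared effect. With a replicate block the counts were 2334 among high lines, 1190 among low lines, 1264 between pairs, 2628 for CA lines minus founders and 1645 in CA, and 0 of 28 member tests changed.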
